A study of Arabidopsis thaliana with 16 samples.

Results

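FBL17, IYO, APTX and AT2G37000 are 4 Arabidopsis thaliana genes of cell division, transcription, DNA repair and growth control. Their transcripts were followed on expression arrays in wild type (WT) and in the gun1-1 mutant, both in the ecotype Columbia 0, with 8 samples of total RNA per genotype, numbered 1 to 8. Per the labels the mutant is defective in plastid signaling, and the question is whether its transcripts differ from those of WT. Tissue, age, growth conditions and treatment are not stated in the labels. No second allele was among the samples, and whether each number stands for separate plants is not stated either, so p-values cover only the spread among these samples, which could be technical. No probe names GUN1 alone, so the labels could not be checked on the mutated gene.

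The array table holds 3439 probes, and the platform's annotation lists exactly 1 gene for 692 of them. Among these, 4 probes name the 4 genes, 1 probe each, and no probe listing several genes includes any of them. The genes were picked by name from earlier results on these same arrays, in which FBL17, APTX and AT2G37000 were among the largest differences between genotypes and IYO had a sample standing apart in each genotype. Their gun1 and WT values are therefore given as a description, without a test. In bulk RNA, fewer cells of a type and less RNA per cell cannot be told apart.

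FBL17 (AT3G54650) is an F-box protein, the part of an SCF ubiquitin ligase that selects the protein to be degraded. In Arabidopsis it targets KRP proteins, the inhibitors of cyclin-dependent kinases, and is best known from the division of the male germ cell and from entry into DNA replication. IYO (MINIYO, AT4G38440) binds RNA polymerase II and promotes transcript elongation, and its entry into the nucleus starts differentiation as cells leave the meristem. APTX (AT5G01310) is an aprataxin-like gene, and in humans aprataxin repairs DNA ends left by failed ligation. AT2G37000 (TCP11) belongs to the TCP family of plant transcription factors, which regulate cell proliferation and growth. GUN1 itself is a plastid protein of the pathway by which plastids report their state to the nucleus.

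The deposited values are intensities between 0 and 100, made in a way that the labels do not describe. Array medians were 0.130 to 0.157 in WT and 0.216 to 0.259 in gun1, and the number of probes listed at 0 was 250 to 451 in WT and 193 to 274 in gun1. The arrays were therefore quantile normalized, and values listed at 0 or below 0.0313, the 5th percentile of the positive values, were set to that floor. Levels below are normalized intensities, and the log2 difference is gun1 minus WT.

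FBL17 and IYO were lower in gun1. FBL17 ranged from 0.129 to 0.283 in WT, with a median of 0.213, and from the floor to 0.106 in gun1, with a median of 0.0395. All 8 WT samples lay above all 8 gun1 samples, and 4 gun1 samples were at the floor. WT had a mean level of 0.210 ± 0.0512 and gun1 one of 0.0536 ± 0.0286 (SD over 8 samples), a log2 difference of -2.10 (SE 0.28). The difference was negative in all 8 numbers, from -3.18 in number 4 to -0.72 in number 6. Before scaling the separation was incomplete: the deposited FBL17 intensity was 0.0805 to 0.230 in WT and 0 to 0.125 in gun1. Thus 1 WT sample lay within the gun1 range, and 4 gun1 samples lay above that WT sample. In number 6 the direction turned, with 0.0805 in WT and 0.0928 in gun1. Of the 4 gun1 samples at the floor, 1 was listed at 0 in the deposited table.

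IYO ranged from 0.312 to 0.506 in WT, with a median of 0.343, and from 0.0457 to 0.416 in gun1, with a median of 0.116. The groups overlapped through gun1 replicate 6, whose 0.416 exceeded 7 of the 8 WT samples, but that count depended on the scaling. It was 2 with a common median, 3 under cyclic loess and 8 in the unscaled values, in which a further gun1 sample, replicate 1, also lay above the lowest WT sample. WT had a mean of 0.365 ± 0.0604 and gun1 one of 0.147 ± 0.117 (SD over 8 samples), a log2 difference of -1.60 (SE 0.32). IYO was lower in gun1 in all 8 numbers, from -2.91 in number 4 to -0.28 in number 6. In the deposited values number 6 turned, with 0.420 in WT and 0.422 in gun1, and IYO was lower in the other 7. No sample was at the floor, so this difference barely moved with the floor, at -1.60 with the floor at the 1st percentile and -1.45 with the floor at the 20th. It did move with the scaling, to -1.02 in the unscaled values, in which the median log2 difference of all tested probes was 0.41.

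APTX and AT2G37000 were higher in gun1, and both were close to the limit of the measurement in WT. APTX was listed at 0 in 7 of the 8 WT samples, and the remaining one, WT replicate 2, had a normalized level of 0.0645. In gun1 it was measured in all 8 samples, from 0.0703 to 0.290, with a median of 0.173. The groups did not overlap, and the difference was positive in all 8 numbers, from 1.17 in number 3 to 3.21 in number 7. With WT set to the floor, the log2 difference was 2.22 (SE 0.29). This size rests on the floor, since it was 3.89 with the floor at the 1st percentile, 0.00834, and 0.89 with the floor at the 20th, 0.0908.

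AT2G37000 was listed at 0 in 5 of the 8 WT samples and was at the floor in 6. Above it were WT replicate 3, at 0.0323, and WT replicate 8, at 0.0643. In the deposited values WT replicate 3 had 0.00486, less than the 0.0152 of WT replicate 2, which was at the floor after scaling. In gun1 it was measured in all 8 samples, from 0.0626 to 0.230, with a median of 0.139. The groups touched in number 8, where gun1 had 0.0626 and WT 0.0643, and the difference was positive in the other 7 numbers. The log2 difference was 1.97 (SE 0.25), or 3.25 and 0.63 with the floor at the 1st and at the 20th percentile. In the deposited values the groups did not touch: the highest WT sample had 0.0480 and the lowest gun1 sample 0.0989.

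**Figure D1:**
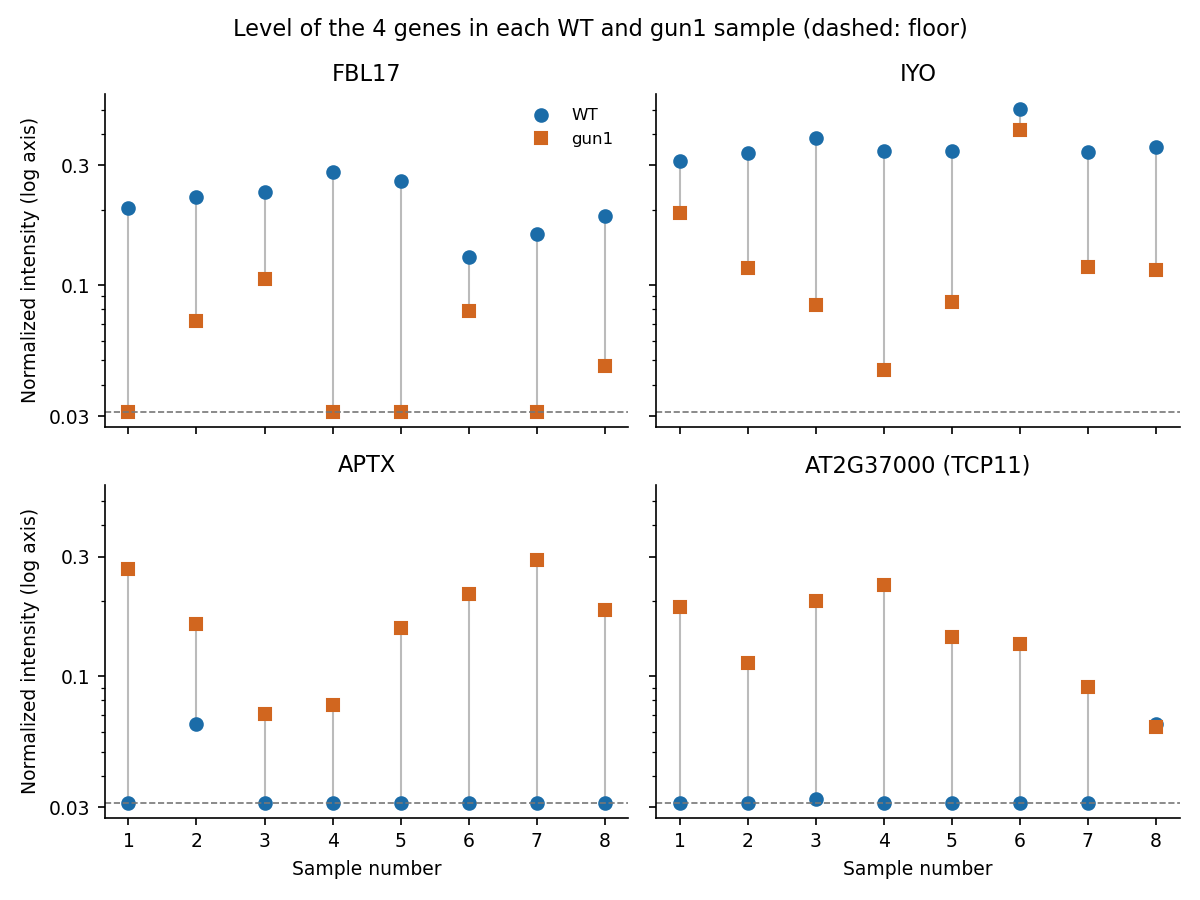
Normalized intensity (log axis) of the 4 genes in WT (circles) and gun1 (squares) by sample number, with the floor of 0.0313 dashed and a grey line joining samples of the same number. FBL17 and IYO lay lower in gun1 in all 8 numbers, APTX lay higher in all 8 and AT2G37000 in 7, with most WT samples of the latter pair at the floor.

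After quantile scaling the direction was the same in all 8 numbers for 3 of the 4 genes, as for 24.9% of the 3419 tested probes. The genotypes did not overlap for 2 of the 4, FBL17 and APTX, as for 8.13% of tested probes. The choice of the genes used this contrast, so these counts describe them and carry no weight of their own. When all tested probes were ordered by mean level and split into 10 classes of equal size, FBL17 fell in class 3 from the dimmest, APTX and AT2G37000 in class 2 and IYO in class 6. The median log2 difference within these classes was 0.018, -0.087 and 0.10, and in the unscaled values it was 0.91, 0.71 and 0.79. In its class of 341 or 342 probes, FBL17 was 1 of 3 with a difference of at least its own size in that direction. APTX was 1 of 2, AT2G37000 1 of 3 and IYO 1 of 5. Over all 3419 tested probes, FBL17 was 1 of 15, APTX 1 of 28, AT2G37000 1 of 42 and IYO 1 of 54.

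**Figure D2:**
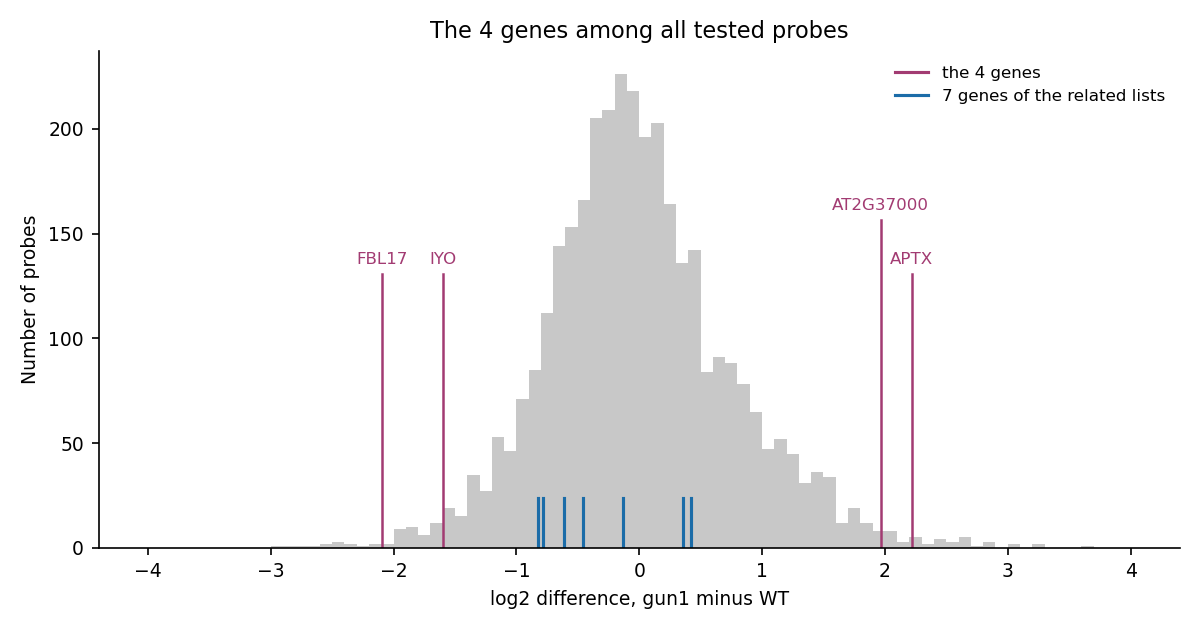
Distribution of the log2 difference, gun1 minus WT, over 3419 tested probes (grey; vertical axis, number of probes), with tall lines at the 4 genes and short lines at 7 genes of related lists. FBL17 (-2.10) and IYO (-1.60) lay in the lower tail and AT2G37000 (1.97) and APTX (2.22) in the upper, while the 7 related genes lay between -0.83 and 0.42.

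On the log2 scale the samples of gun1 had a larger SD than those of WT for each of the 4 genes, while on the linear scale FBL17 had the larger SD in WT. For IYO the SD of the log2 level over 8 samples was 0.21 in WT and 0.94 in gun1, against a median over probes above the floor in all 16 samples of 0.33 and 0.42. Among those 2015 probes, 17 (0.844%), IYO included, had a gun1 SD at least 4.40 times the WT SD. IYO was chosen for a sample standing apart in each genotype, which enters its SDs, so this share is a description. Without number 6 in both genotypes the SDs of IYO were 0.093 and 0.64. The SDs of FBL17 were 0.38 in WT and 0.72 in gun1, those of APTX 0.37 and 0.76 and those of AT2G37000 0.37 and 0.63, but values tied at the floor shrink a group's spread.

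IYO stood high in number 6 of both genotypes, at 0.506 against 0.312 to 0.387 in the other WT samples and 0.416 against 0.0457 to 0.194 in the other gun1 samples. FBL17 had its lowest WT level in number 6, 0.129, but not its lowest gun1 level, 0.0784. Being highest in number 6 of both genotypes was shared with other probes, 95 of 3419 (2.78%), and the corresponding share for the other numbers was 1.46% to 3.19%. Since IYO was chosen for these samples, its agreement between same-numbered samples is a description: over the 8 numbers, Pearson's r was 0.584 and Spearman's rho -0.190. Without the numbers 3 and 6, which lay farthest from the WT median, r was -0.564. Number 6 deviated upward from the mean in both genotypes (log2 0.48 in WT, 1.80 in gun1), but number 3 in opposite directions (0.096 and -0.53). Of these numbers, only number 6 thus contributed to the positive value.

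The other 3 genes were not chosen on this agreement and were tested, two-sided and adjusted over the 4 genes. For FBL17, r was -0.230 (exact permutation p = 0.575, adjusted 0.767) and rho -0.241 (p = 0.561, adjusted 0.887), with r = -0.201 without the numbers 6 and 7. For APTX, r was 0.0116 and rho -0.0825 (exact permutation p = 1.0 for both). For AT2G37000, r was -0.693 (exact permutation p = 0.107, adjusted 0.326) and rho -0.218 (p = 0.607, adjusted 0.887). The values of APTX and AT2G37000 rest on 1 or 2 WT samples above the floor, so that the test of these genes has little or no power, and without these samples no r could be computed. Over all tested probes, deviations of same-numbered samples from their genotype's mean correlated positively in all 8 numbers, with r across probes from 0.143 to 0.421. That r runs across probes within a number, while the r of a gene runs across the 8 numbers, so the values cannot be set against each other. In the test across numbers, FBL17, APTX and AT2G37000 did not pass.

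**Figure D3:**
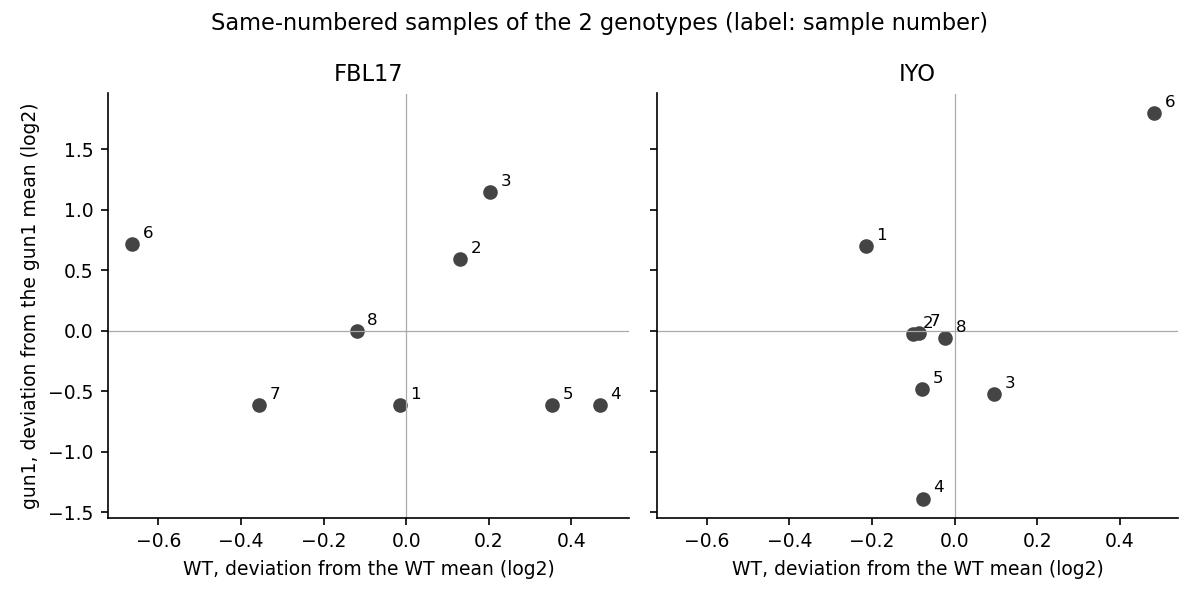
Deviation of each gun1 sample from the gun1 mean (vertical axis, log2) against that of the same-numbered WT sample from the WT mean (horizontal axis, log2), for FBL17 and IYO. Number 6 of IYO stands at the upper right (0.48 in WT, 1.80 in gun1). For IYO, the numbers 2, 4, 5, 7 and 8 lay below the mean in both genotypes, and the numbers 1 and 3 lay on opposite sides.

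Within a genotype, pairs of the genes were compared where each had at most 3 samples at the floor, which left 4 relations, chosen after the data were seen. FBL17 met this limit only in WT, and APTX and AT2G37000 only in gun1, in each case the genotype where the gene was higher. IYO was chosen for its replicate 6 in each genotype, and these values enter its relations. The p-values of the 4 relations are therefore a description and carry no weight of their own. In gun1, APTX and IYO ranked the samples alike, with a Spearman rho of 0.857 (exact permutation p = 0.0107, adjusted 0.0428, two-sided, n = 8), although Pearson's r of 0.673 did not pass (exact permutation p = 0.0672, adjusted 0.205). Both were low in gun1 replicates 3 and 4, where APTX had 0.0703 and 0.0766 and IYO 0.0830 and 0.0457. Without these samples r was 0.366 and rho 0.714 (exact permutation p = 0.136, n = 6), so Pearson's r rested on them more than the ranking did, and with 6 samples left the ranking no longer passed. Consecutive numbers of a genotype deviated together over all probes (estimated correlation 0.365), so these p-values may be too small. The deposited array medians were 0.251 to 0.259 in gun1 replicates 1, 2, 7 and 8 and 0.216 to 0.224 in replicates 3 to 6. Both genes were higher in the former than in replicates 3, 4 and 5. Replicate 6 went the other way, with 0.416 for IYO and 0.213 for APTX. Whether the ranking follows these sets of arrays was not tested.

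The other 3 relations did not pass. APTX and AT2G37000 had r = -0.554 in gun1 (exact permutation p = 0.154, adjusted 0.205) and rho = -0.595 (p = 0.132, adjusted 0.264), with r = 0.133 without the replicates 3 and 4. IYO and AT2G37000 had r = -0.241 in gun1 (exact permutation p = 0.573, adjusted 0.573) and rho = -0.476 (p = 0.243, adjusted 0.324), with r = 0.0201 without the replicates 4 and 6. FBL17 and IYO had r = -0.609 in WT (exact permutation p = 0.109, adjusted 0.205) and rho = -0.143 (p = 0.752, adjusted 0.752), with r = 0.146 without the replicates 6 and 7. In gun1, AT2G37000 had a mean of 0.183 ± 0.0499 in the numbers 1 to 4 and 0.107 ± 0.0377 in the numbers 5 to 8 (SD, n = 4 each), and the means of APTX were 0.144 ± 0.0926 and 0.211 ± 0.0576, with overlapping values for each gene.

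Related genes were sought in 7 lists by symbol and synonym among probes naming 1 gene, the 4 genes left out. The lists of cell cycle and DNA replication, of F-box and SCF ubiquitin ligase, of RNA polymerase II and elongation, and of pollen, root and seed markers matched 0 measured genes. The search read names only, so it could miss genes listed by locus alone, and it left out the 870 probes listing several genes. The array may thus hold more genes of these kinds. With these lists, neither the partners of FBL17 and IYO nor other organs could be followed. The remaining lists held 7 genes, of which limma called 0 higher, 1 lower and 6 in neither direction, against 31.8% of 3419 probes called in all, 16.6% higher and 15.2% lower. The median log2 difference of the 7 was -0.45, and that of all tested probes -0.053.

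The called gene was DME (DEMETER), on the DNA repair list, a DNA glycosylase that removes methylated cytosine in Arabidopsis. DME ranged from 0.184 to 0.312 in WT, with a median of 0.237, and from 0.0716 to 0.217 in gun1, with a median of 0.142. The groups overlapped, but the difference was negative in all 8 numbers. DME fell by 0.78 on the log2 scale (limma, SE 0.21, adjusted p = 0.00906). It was not called in the unscaled values (log2 -0.070, adjusted p = 0.818), with consecutive numbers averaged (adjusted p = 0.0694) or in the numbers 5 to 8 alone (0.215). It was called in the fit blocked by sample number (0.00856), with consecutive numbers averaged and the averaged pair as a block (0.0331), a fit added after the data were seen, and with consecutive numbers as a random block (0.0323). The other gene matched by the repair list was OSB1, which encodes an organellar single-stranded DNA binding protein. OSB1 had means of 0.172 ± 0.0528 (WT) and 0.213 ± 0.0385 (gun1) over 8 samples each (± SD). Its log2 difference was 0.36 (limma, adjusted p = 0.182).

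TCP15 was the 1 gene that the TCP list matched. It had means of 0.182 ± 0.0681 (WT) and 0.132 ± 0.0430 (gun1) over 8 samples each (± SD). Its log2 difference was -0.45 (limma, SE 0.24, adjusted p = 0.156, lower in 7 of 8 numbers), and 0.38 in the unscaled values, so that the direction turned with the scaling. AT2G37000, of the same family, stood at 1.97. The difference between these TCP genes was not tested, because AT2G37000 was chosen for its size. Among other transcription factors, the log2 difference was -0.61 for AGL103 (adjusted p = 0.0966), -0.83 for AGL54 (0.153) and 0.42 for AGL26 (0.213), named AGAMOUS-like in the gene table, and -0.13 for AT4G03090 (0.679), a nodulin homeobox gene. With the sample number as a block, AGL103 was called as well (adjusted p = 0.0494), so that 2 of the 7 genes were called. AGL103 was not called with consecutive numbers averaged and blocked (0.0985) or as a random block (0.167).

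**Figure D4:**
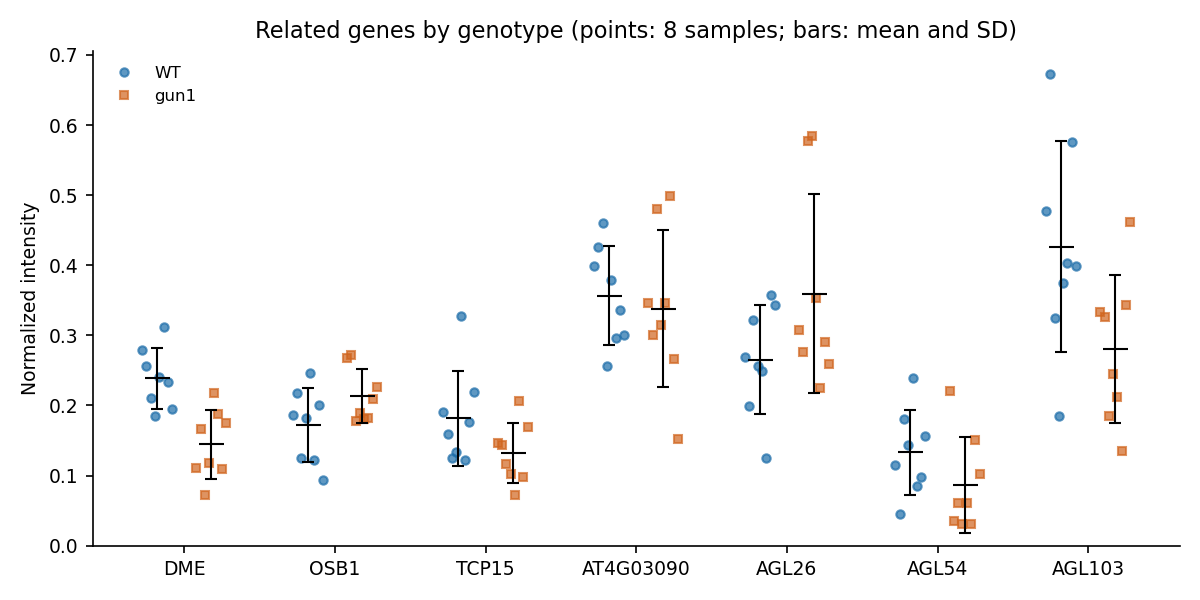
Normalized intensity of the 7 related genes in WT (circles) and gun1 (squares), 8 samples each, with mean and SD in black. The ranges overlap for all 7, and DME, with means of 0.239 in WT and 0.145 in gun1, was the one called by limma.

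The genes whose pattern was most like that of each of the 4 were taken from the other 688 tested probes naming 1 gene, by Pearson's r of the log2 level over 16 samples. All genes were read on the same arrays, and the genotype difference enters r. For FBL17 these were AT2G23390 (r = 0.931), AT2G27680 (0.908) and AT5G46560 (0.907), and for IYO AT3G25840 (0.908), AT3G04500 (0.886) and AT5G49800 (0.858). For APTX they were AT1G73740 (0.891), AT4G35660 (0.890) and AT1G22700 (0.873). For AT2G37000 they were HEMA3 (0.909), of the glutamyl-tRNA reductase family of tetrapyrrole synthesis, AT3G11150 (0.905) and AT1G11820 (0.893). HEMA3 had a log2 difference of 0.68 (limma, adjusted p = 0.000825), smaller than that of AT2G37000.

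With each genotype's mean subtracted, the likest genes were mostly others. AT2G27680 was then closest to FBL17 (r = 0.772 over 16 samples), followed by AT4G29750 (0.739) and GLDH (0.728), an L-galactonolactone dehydrogenase of vitamin C synthesis that was not called (log2 -0.024, adjusted p = 0.929). AT3G25840 stayed among those of IYO (0.766), after AT1G53050 (0.779) and AT2G38570 (0.777). AT2G38570 was also near APTX (0.757), between AT1G35510 (0.815) and AT4G27250 (0.735). For AT2G37000 they were RALFL32 (0.758), a RALF-like signaling peptide, AT3G61680 (0.713) and AT2G21530 (0.668), and RALFL32 was not called (log2 0.061, adjusted p = 0.850). Most WT values of APTX and AT2G37000 are tied at the floor, so their values of r here come mainly from gun1.

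The direction of the 4 differences was the same under each of 25 alternatives that changed the scaling, the floor or the samples used, but the choice of the genes already favours it. The sizes varied. The log2 difference of FBL17 lay between -2.71 and -1.14 and that of IYO between -1.86 and -1.02. That of APTX lay between 0.89 and 3.89 and that of AT2G37000 between 0.63 and 3.25. IYO had the narrowest range and AT2G37000 and APTX the widest, with most of their WT samples at the floor.

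**Figure D5:**
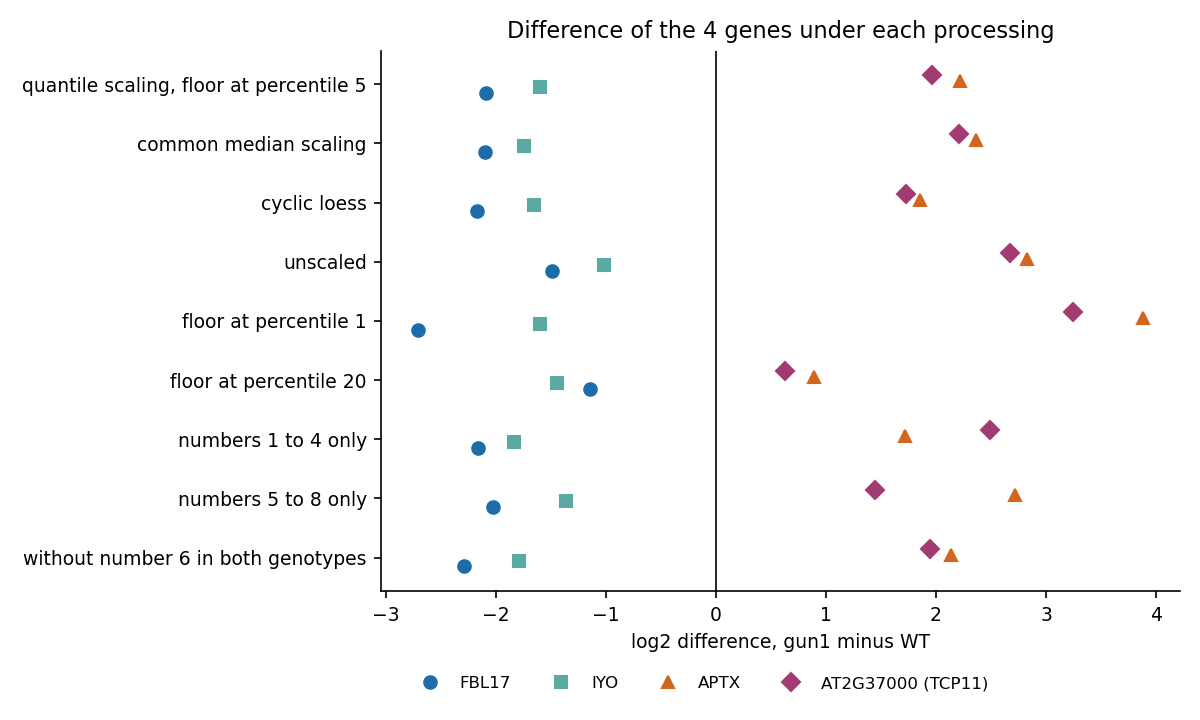
The log2 difference, gun1 minus WT, of the 4 genes (horizontal axis) under quantile scaling with the floor at the 5th percentile and under 8 alternatives (vertical axis). FBL17 and IYO lay below 0 and APTX and AT2G37000 above 0 in each, and the floor moved APTX, AT2G37000 and FBL17 more than IYO.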

How the data were processed

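The deposited table holds 1 intensity per probe and sample on a linear scale, 3439 probes by 16 samples, from 0 to 100 in each. How the authors made the deposited intensities is not described in the labels, nor are the build and the dyes. The number of arrays limits the precision. Groups and numbers came from the sample titles. The platform's annotation named the probes, and 690 of 692 probes with 1 gene were matched by Entrez number to the RefSeq gene table of TAIR10.1.

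Arrays were quantile normalized (limma 3.58.1, R 4.3.3), values listed at 0 or below the 5th percentile of positive values were set to it, and log2 was taken. After 20 constant probes were left out, gun1 minus WT was fitted for 3419 probes with lmFit and eBayes, two-sided, with no block, and adjusted by Benjamini-Hochberg at 0.05 over all of them. A called probe passed this threshold. The procedure was tested on simulated data. Correlations used exact permutations (SciPy 1.17.1), adjusted within their family of 4. Figures were drawn with matplotlib 3.10.9.

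The genes and lists were chosen with earlier results of these data known. Named are the 4 genes, all measured genes of the 7 lists, and per gene the 3 likest by r, with and without genotype means subtracted. Same-numbered samples deviated together in all 8 numbers (r across probes at least 0.143). Samples of different numbers were not compared across genotypes, so whether the numbers pair the samples was not tested. Promoters and other sequences were not analysed here.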

Additional observations from a re-analysis of the deposited data

Results flagged for a closer look

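Among 22 groups of 8 samples, 2 for each of the 4 genes and 7 related genes, 5 held a sample that stood apart from the other 7 by Dixon's test, which does so in about 1 in 20 groups by chance where values are independent and normal. Of these, 2 are the IYO groups, and IYO was chosen for its samples that stand apart, so the 5 of 22 cannot be read against that rate. IYO stood out in replicate 6 of WT and of gun1, at 0.506 in WT against a median of 0.342 in the others and at 0.416 in gun1 against 0.115. Without number 6 in both genotypes, an alternative chosen after the data were seen, the log2 difference of IYO was -1.79. APTX in WT replicate 2 (0.0645) and AT2G37000 in WT replicate 8 (0.0643) stood above a median at the floor of 0.0313, so ties at the floor enter these cases. TCP15 was high in WT replicate 5, at 0.328 against 0.159. No explanation was tested for these values.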

How the results depend on the processing

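The count of 1088 called probes became 592 with consecutive numbers averaged, 596 in the numbers 1 to 4 alone and 333 in the numbers 5 to 8 alone, each with fewer samples. It was 996 to 1065 with 1 sample left out and 1293 with the replicate number as a block, where 1055 of the 1088 were called again. Of calls, 52.1% were higher in gun1, against 34.2% with a common median and 85.5% unscaled. Of the 7 related genes, 1 was called, against 2 with a common median (AGL103 and DME, lower), 2 unscaled (OSB1 and AGL26, higher), 2 with the replicate block (AGL103 and DME) and 0 with consecutive numbers averaged or in the numbers 5 to 8. It was 1 to 2 with 1 sample left out, with AGL103 added without WT replicate 4 (adjusted p = 0.0279) and AGL54 without gun1 replicate 1 (0.0491). The log2 difference turned to 0.38 for TCP15 and 0.33 for AT4G03090 unscaled, and to 0.044 for AT4G03090 without the numbers 7 and 8 and 0.022 without gun1 replicate 8 (from -0.22 to 0.022 with 1 sample left out). Unscaled, the log2 difference was -1.49 for FBL17, 2.83 for APTX and 2.67 for AT2G37000. With the floor at the 1st percentile it was -2.71, 3.89 and 3.25, and at the 20th -1.14, 0.89 and 0.63, where the floor itself sets the level of the tied samples. For AT2G37000 it was 2.49 in the numbers 1 to 4 and 1.45 in the numbers 5 to 8. The same-number r of IYO turned to -0.564 without the numbers 3 and 6. The cause of the other changes was not tested. The block changed no other call among the 7 genes. Levels near the floor limit what can be read of APTX and AT2G37000 in WT.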
